A study of Mus musculus with 9 samples.

Results

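The genes described here encode the folding and quality control machinery of the endoplasmic reticulum (ER) and the sensors of the unfolded protein response. They were 32 genes chosen by name and role (11 chaperones and co-chaperones, 5 protein disulfide isomerases, 10 genes of ER-associated degradation, 3 of the translocon, and 3 sensors or transcription factors) among 33293 gene identifiers. RNA was sequenced from whole aorta of male mice aged 7 to 8 weeks that were kept on a normal chow diet. The groups were 5 libraries from wild type C57BL/6J mice (WT) and 4 from Apoe-knockout mice (Apoe_KO). Apoe is the gene of apolipoprotein E. Diet, sex and age were shared by all libraries, and the labels give neither the allele nor the backcross of the knockout. Nothing in the labels states that the libraries of a group are from different animals, so p-values measure only the spread between these samples, which may be technical.

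Proteins bound for secretion or for membranes enter the ER through the Sec61 channel and are folded there by chaperones and by enzymes that form disulfide bonds. When unfolded protein accumulates, the chaperone BiP (encoded by Hspa5) leaves the luminal sides of the sensors encoded by Atf6, Ern1 and Eif2ak3. Cleaved ATF6, and XBP1 made from an mRNA that the ERN1 endonuclease splices, then switch on genes of chaperones and of the degradation pathway that returns misfolded protein to the cytosol. Smooth muscle cells and fibroblasts of the aorta secrete large amounts of collagen and other matrix proteins and use this machinery constantly.

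Values are FPKM, fragments per kilobase of exon scaled to the library's total, so levels of different genes can be set side by side. Each library held 17.0 to 19.8 M reads or fragments. Apoe was at 513 to 643 FPKM in the WT libraries and at 5.64 to 6.55 FPKM in the Apoe_KO libraries, so every library followed its label. Smooth muscle markers were high in every library, with 9 genes that summed to 4809 to 5722 FPKM in WT and 4941 to 6256 FPKM in Apoe_KO. WT 2 and Apoe_KO 4 differed from the rest in lymphocyte transcripts. The 16 plasma and B cell markers summed to 2615 FPKM in WT 2 and 890.2 FPKM in Apoe_KO 4, against 60.02 to 96.2 FPKM in the other libraries. For the called members and for lists whose counts changed, values without both libraries are given below.

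Of the 32 members, 31 reached 1 FPKM in at least 4 libraries and were tested, and 6 were called higher in Apoe_KO (limma, Benjamini-Hochberg adjusted p below 0.05 over all tested genes). That is 19.4% of the tested members, where 3.43% of all 13383 tested genes were called higher. The members were chosen with earlier results of these data known. Shares of members set beside all genes, here and below, are therefore descriptive and not tested. No member was called lower, where 3.92% of all tested genes were. At an unadjusted p under 0.05, 10 members were higher (32.3%, against 8.59% of all genes) and 0 were lower (against 2140 of all genes), and limma's voom on recovered reads also called 6 higher and 0 lower. The 6 were Herpud1, Hspa5, Creld2, Dnajb9, Manf and Dnajc3, which are 5 of the 11 chaperones and co-chaperones and 1 gene of ER-associated degradation. The median log2 fold change was 0.082 over the tested members and -0.069 over all tested genes. All log2 fold changes are differences of mean log2(FPKM + 1), Apoe_KO minus WT, and the added 1 shrinks them for low genes. Over all tested genes the calls were 459 higher and 524 lower, 630 and 269 with libraries centred on their medians, and 485 and 240 after quantile normalization.

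**Figure D1:**
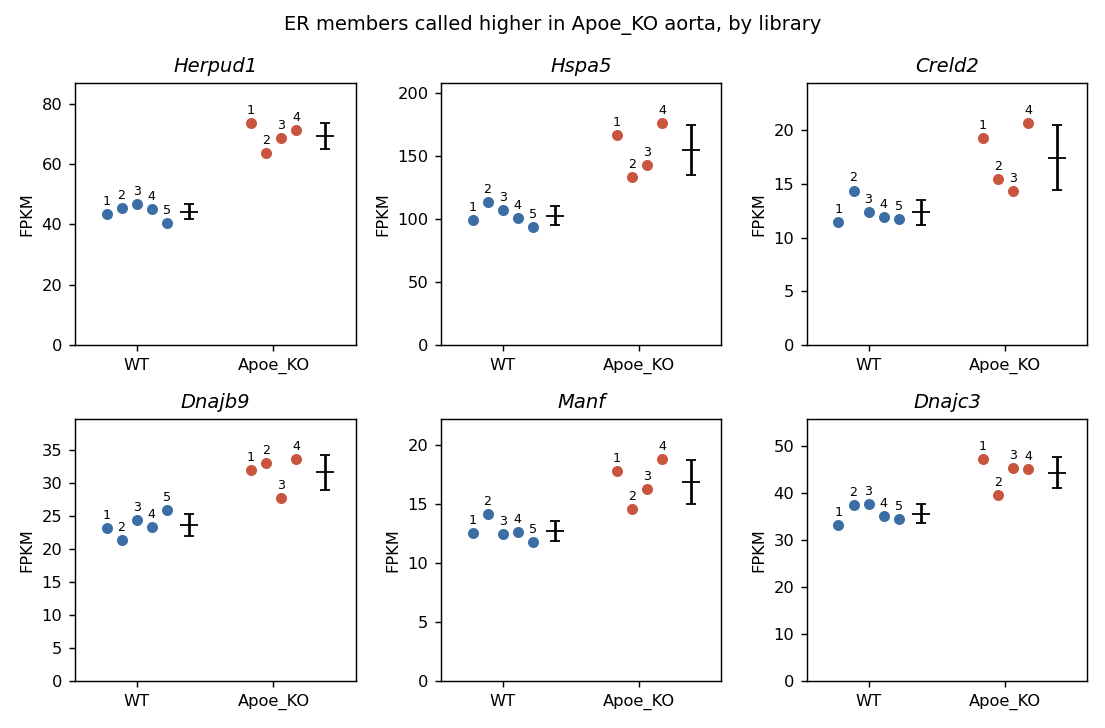
FPKM of the 6 members called higher, with 1 point per library (numbers are the replicate numbers, blue WT and red Apoe_KO) and the mean with its SD beside each group (5 WT and 4 Apoe_KO libraries). The groups are separate for Herpud1, Hspa5, Dnajb9, Manf and Dnajc3, and for Creld2 Apoe_KO 3 lies just below WT 2.

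Herpud1 encodes an ER membrane protein that organises the ubiquitin ligase complex of ER-associated degradation. It lies on chromosome 8 (ENSMUSG00000031770, 94386438 to 94395377, plus strand, GRCm38). Its level was 43.3, 45.3, 46.8, 45.1 and 40.5 FPKM in WT 1 to 5 and 73.7, 63.7, 68.5 and 71.3 FPKM in Apoe_KO 1 to 4. The lowest Apoe_KO library stood well above the highest WT library. The mean rose from 44.2 ± 2.42 to 69.3 ± 4.29 FPKM (SD, n = 5 and 4), a ratio of 1.57 and a log2 fold change of 0.64 (SE 0.067, limma adjusted p = 0.00131). It was called under all 19 alternative settings, with adjusted p from 0.000506 to 0.0387. Without WT 2 and Apoe_KO 4 together its log2 fold change was 0.63 (limma adjusted p = 0.0133).

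Hspa5 encodes BiP, the main Hsp70-type chaperone of the ER lumen (ENSMUSG00000026864, chromosome 2, 34771970 to 34777547, plus strand, GRCm38). Its level was 99.1, 113, 107, 101 and 93.5 FPKM in WT 1 to 5 and 166, 133, 143 and 176 FPKM in Apoe_KO 1 to 4. Every Apoe_KO library was above every WT library, and the Apoe_KO libraries were spread more widely. The mean rose from 103 ± 7.50 to 154 ± 20.05 FPKM (SD, n = 5 and 4), with a log2 fold change of 0.58 (SE 0.097, limma adjusted p = 0.00899). Without WT 2 and Apoe_KO 4 together the log2 fold change was 0.55 (limma adjusted p = 0.0278). Over all alternatives the adjusted p ran from 0.00355 to 0.111, and the call was lost only with the replicate number as a block (0.111).

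Dnajb9, a J-domain co-chaperone that works with BiP and keeps the ERN1 sensor in check, was at 23.2, 21.3, 24.4, 23.4 and 25.9 FPKM in WT 1 to 5. In Apoe_KO 1 to 4 it was at 31.95, 33.0, 27.8 and 33.7 FPKM. The groups did not overlap, and the log2 fold change was 0.40 (SE 0.076, limma adjusted p = 0.0146). Without WT 2 and Apoe_KO 4 together it was 0.34 and no longer called (adjusted p = 0.0648; 0.00802 to 0.102 over all alternatives). The gene shares 0.55% of its exonic length with the antisense microRNA gene Mir5627. No source used here states whether counting used the strand, so reads of a gene and of an antisense partner cannot be told apart.

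Creld2 encodes a protein of the ER lumen that can be secreted. It was at 11.48, 14.4, 12.4, 11.9 and 11.7 FPKM in WT 1 to 5 and at 19.2, 15.5, 14.3 and 20.7 FPKM in Apoe_KO 1 to 4. Apoe_KO 3 fell within the WT range, which WT 2 extends upward. The log2 fold change was 0.45 (SE 0.11, limma adjusted p = 0.0389). The call was lost without WT 1 (adjusted p = 0.0810), WT 3 (0.0644), WT 4 (0.0870), WT 5 (0.0843), Apoe_KO 1 (0.0951) or Apoe_KO 4 (0.0786), without WT 2 and Apoe_KO 4 together (0.0630), and with no filter on low genes (0.101), among alternatives from 0.0132 to 0.188. With 1 library left out the log2 fold change was 0.37 to 0.54, and without WT 2 and Apoe_KO 4 together it was 0.42.

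Manf, a secreted survival factor that binds BiP in the ER lumen, was at 12.6, 14.2, 12.5, 12.7 and 11.8 FPKM in WT 1 to 5. Its Apoe_KO levels were 17.8, 14.6, 16.3 and 18.9 FPKM. The groups were separate by a narrow margin between WT 2 and Apoe_KO 2. The log2 fold change was 0.38 (SE 0.082, limma adjusted p = 0.0248). The call was lost without WT 1 (adjusted p = 0.0537), WT 4 (0.0624), WT 5 (0.0581), Apoe_KO 1 (0.0639), Apoe_KO 3 (0.0650) or Apoe_KO 4 (0.0563), without WT 2 and Apoe_KO 4 together (0.0525), and with no filter on low genes (0.0665), among alternatives from 0.00569 to 0.172. Its log2 fold change was 0.32 to 0.44 with 1 library left out and 0.36 without both. Manf shares 9.25% of its exonic length with other genes (Dcaf1 and 4930524O07Rik antisense, Rbm15b on its own strand), so its value is uncertain to that extent.

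Dnajc3, a luminal co-chaperone of BiP, was at 33.2, 37.6, 37.8, 35.2 and 34.5 FPKM in WT 1 to 5 and at 47.4, 39.6, 45.4 and 45.2 FPKM in Apoe_KO 1 to 4. The groups did not overlap, with Apoe_KO 2 closest to WT. This was the smallest change among the called members, with a log2 fold change of 0.31 (SE 0.070, limma adjusted p = 0.0292). The call was lost without WT 1 (adjusted p = 0.0663), WT 4 (0.0723), WT 5 (0.0704), Apoe_KO 1 (0.0745), Apoe_KO 3 (0.0891) or Apoe_KO 4 (0.0643), without WT 2 and Apoe_KO 4 together (0.0799), and with no filter on low genes (0.0718), among alternatives from 0.00889 to 0.187. The log2 fold change stayed between 0.28 and 0.36 with 1 library left out and was 0.32 without both.

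The number of members called higher changed when 1 library was left out, which also leaves fewer samples in the fit. It was 3 without WT 1, WT 4, WT 5, Apoe_KO 1 or Apoe_KO 4, 4 without Apoe_KO 3, 5 without WT 3, 6 without WT 2 and 7 without Apoe_KO 2, and 2 (Herpud1 and Hspa5) without WT 2 and Apoe_KO 4 together. With the replicate number as a block only Herpud1 was called (limma adjusted p = 0.0387). The calls of Hspa5 (0.111), Dnajb9 (0.102), Creld2 (0.188), Manf (0.172) and Dnajc3 (0.187) were lost there. In all of these fits the 6 genes kept a positive log2 fold change. Over all tested genes the number called higher was 459 with every library and 205 to 576 with 1 left out. In 6 members every Apoe_KO library exceeded every WT library, which held for 4.9% of all tested genes. They were Herpud1, Hspa5, Dnajb9, Manf and Dnajc3 and the uncalled Atf6. No member had every Apoe_KO library below every WT library, which held for 7.48%.

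Promoters of several members carry the ER stress response element (ERSE), which ATF6 and XBP1 bind together with the CCAAT factor NF-Y. The sequences of the most strongly changed members, Hspa5 and Herpud1, are shown to place the element relative to the start of transcription. They are the 250 bases before the RefSeq start (GRCm38.p6), read 5′ to 3′ along the gene, and capitals mark the fixed letters of the element.
Hspa5, chr2:34771840-34772089, plus strand: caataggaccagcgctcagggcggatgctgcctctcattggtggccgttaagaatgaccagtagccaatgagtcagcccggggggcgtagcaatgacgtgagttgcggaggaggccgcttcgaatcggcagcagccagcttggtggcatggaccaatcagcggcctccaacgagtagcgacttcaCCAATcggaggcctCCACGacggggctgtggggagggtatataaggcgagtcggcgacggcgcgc
Herpud1, chr8:94386179-94386428, plus strand: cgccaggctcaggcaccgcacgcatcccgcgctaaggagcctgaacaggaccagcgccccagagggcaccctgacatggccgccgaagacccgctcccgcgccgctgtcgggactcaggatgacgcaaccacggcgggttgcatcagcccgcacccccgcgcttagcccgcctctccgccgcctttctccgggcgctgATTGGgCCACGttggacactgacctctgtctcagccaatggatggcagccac

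ERSE was searched as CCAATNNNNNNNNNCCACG and the related ERSE-II as ATTGGNCCACG, on both strands of the 250 bases before each RefSeq start. The set of RefSeq promoters used here held 30 promoters for 27 of the members. It had no entry for Atf6, Derl1, Hyou1, Manf and Sec61a1. ERSE was in the promoters of 9 members and in 37 of all 32851 promoters (0.113%). ERSE-II was in 1 member, Herpud1, and in 10 of all promoters (0.0304%). ERSE is known from genes of this kind, so its presence in them is background and not a finding about the knockout. The motifs of members other than Hspa5 and Herpud1 follow, with 10 bases on either side. Capitals again mark the fixed letters, and an element on the opposite strand reads CGTGG first and ATTGG last.
Dnajc3, chr14:118937817-118937855, plus strand: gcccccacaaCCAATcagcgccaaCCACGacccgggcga
Creld2, chr15:88819510-88819548, plus strand: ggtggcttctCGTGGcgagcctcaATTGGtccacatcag
Syvn1, chr19:6046522-6046560, plus strand: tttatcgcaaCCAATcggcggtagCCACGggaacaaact
Hsp90b1, chr10:86705628-86705666, minus strand: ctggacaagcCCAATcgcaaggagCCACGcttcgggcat
Hsp90b1, chr10:86705523-86705561, minus strand: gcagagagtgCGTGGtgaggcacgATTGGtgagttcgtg
Calr, chr8:84847065-84847103, minus strand: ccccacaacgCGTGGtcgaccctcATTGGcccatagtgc
Canx, chr11:50325790-50325828, minus strand: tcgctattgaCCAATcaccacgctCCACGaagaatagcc
Pdia6, chr12:17266481-17266519, plus strand: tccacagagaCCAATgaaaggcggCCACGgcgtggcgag
Derl3, chr10:75893232-75893270, plus strand: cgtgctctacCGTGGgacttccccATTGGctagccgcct

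Called and uncalled members were found both with and without the element. Of the 10 members with ERSE or ERSE-II, 9 were tested and 4 were called higher (Herpud1, Hspa5, Creld2 and Dnajc3). Their median log2 fold change over the 9 tested was 0.18, and all 9 were above 0. Hsp90b1, which has 2 copies, and Calr, Canx, Pdia6 and Syvn1 were not called. Of the 17 members with a promoter entry and neither element, 1 was called (Dnajb9). Their median was 0.038, and 11 were above 0. The elements lay between 26 and 212 bases before the start, and in the 4 called members between 42 and 126. A further element, UPRE, which XBP1 binds and which was searched as TGACGTGG, was in 1 member promoter, of Txndc5, and in 0.563% of all promoters. These matches are letters in a window and say nothing of binding in these aortas.

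**Figure D2:**
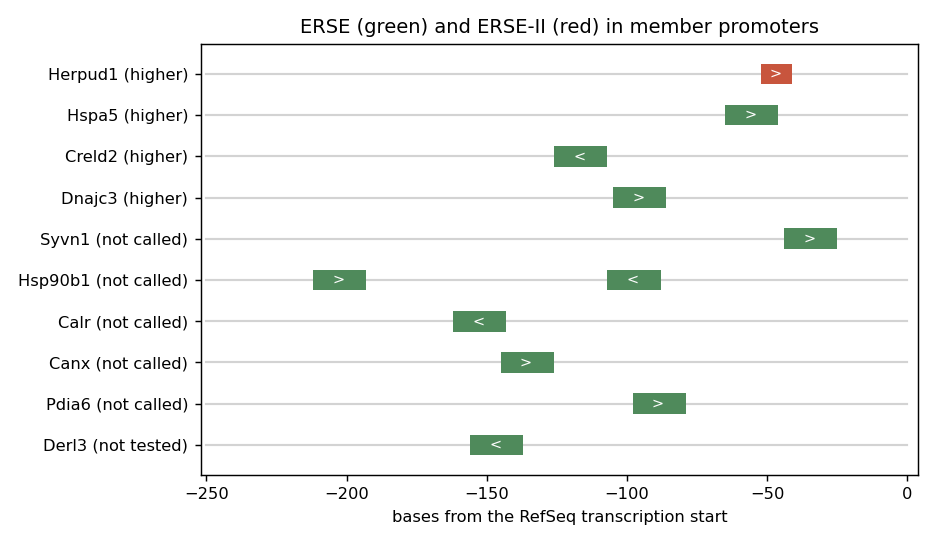
Position of ERSE (green) and ERSE-II (red) in the 250 bases before the RefSeq start of the 10 members that carry one, ordered by log2 fold change, with arrowheads for the strand and the limma call beside each name. The 4 called members are at the top, and Hsp90b1 carries 2 elements.

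Among the chaperones and co-chaperones, all 11 had a log2 fold change above 0, whereas 36.1% of all tested genes did. The group median was 0.31. The 6 that were not called were Sdf2l1 (0.42), Hyou1 (0.25), Hsp90b1 (0.15), Dnajb11 (0.094), Calr (0.082) and Canx (0.048). Calr, which encodes the lectin chaperone calreticulin and had the highest mean over all 9 libraries of the members, was at 159.6, 170.2, 174, 169 and 174 FPKM in WT 1 to 5. In Apoe_KO 1 to 4 Calr was at 182, 167, 181 and 187 FPKM. The groups overlapped through Apoe_KO 2 (limma adjusted p = 0.468, 95% interval of the log2 fold change -0.060 to 0.22). For Canx, the membrane-bound relative of calreticulin, the WT mean was 88.4 ± 5.89 FPKM and the Apoe_KO mean 91.4 ± 5.17 FPKM (SD, n = 5 and 4).

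Hsp90b1 encodes the Hsp90-type chaperone of the ER. Its level was 105, 121, 106, 103 and 115 FPKM in WT 1 to 5 and 129, 108, 126 and 125 FPKM in Apoe_KO 1 to 4. Apoe_KO 2 fell within the WT range, and the limma adjusted p was 0.295. Hsp90b1 shares 15.7% of its exonic length with other annotated genes, among them the antisense gene 1810014B01Rik, so its value is uncertain to that extent. Hyou1, a large Hsp70-related nucleotide exchange factor for BiP, was at 13.3, 14.8, 13.0, 13.2 and 12.2 FPKM in WT 1 to 5 and at 17.2, 13.2, 16.3 and 17.6 FPKM in Apoe_KO 1 to 4. Its Apoe_KO 2 library lay within the WT range and the other Apoe_KO libraries above it (limma adjusted p = 0.121). Hyou1 was called higher without Apoe_KO 2 (log2 fold change 0.33, adjusted p = 0.0220), with median centring (0.0362) and with library weights (0.0359), among alternatives up to 0.362.

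Sdf2l1, part of a BiP co-chaperone complex with Dnajb11, was the member with the widest interval. It was at 4.99, 9.52, 4.13, 7.94 and 5.73 FPKM in WT 1 to 5 and at 10.6, 6.28, 8.83 and 9.36 FPKM in Apoe_KO 1 to 4. The WT libraries were scattered, with WT 2 above Apoe_KO 2, 3 and 4, and the 95% interval ran from -0.068 to 0.91. For Dnajb11 the WT mean was 18.6 ± 1.11 FPKM and the Apoe_KO mean 19.96 ± 1.95 FPKM (SD, n = 5 and 4, limma adjusted p = 0.476).

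No protein disulfide isomerase was called (5 tested, 0 at an unadjusted p under 0.05 and 0 by voom). These enzymes form and rearrange the disulfide bonds of secreted proteins, and P4hb is also a subunit of the collagen prolyl hydroxylase. P4hb was at 165, 168, 170.1, 172 and 178 FPKM in WT 1 to 5 and at 168, 152, 176 and 170.1 FPKM in Apoe_KO 1 to 4. The libraries of the groups lay among each other, and the 95% interval of the log2 fold change was -0.18 to 0.11. Pdia3, which acts on glycoproteins held by the lectin chaperones, had a WT mean of 150.1 ± 7.99 FPKM and an Apoe_KO mean of 154 ± 9.76 FPKM (SD, n = 5 and 4). The log2 fold changes of Pdia4, Pdia6 and Txndc5 were 0.14, 0.0032 and 0.010, and the group median was 0.010. Their 95% intervals reached at most 0.35, the upper end for Pdia4. Txndc5 shares 11.9% of its exonic length with the antisense genes Bmp6 and Gm31834.

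**Figure D3:**
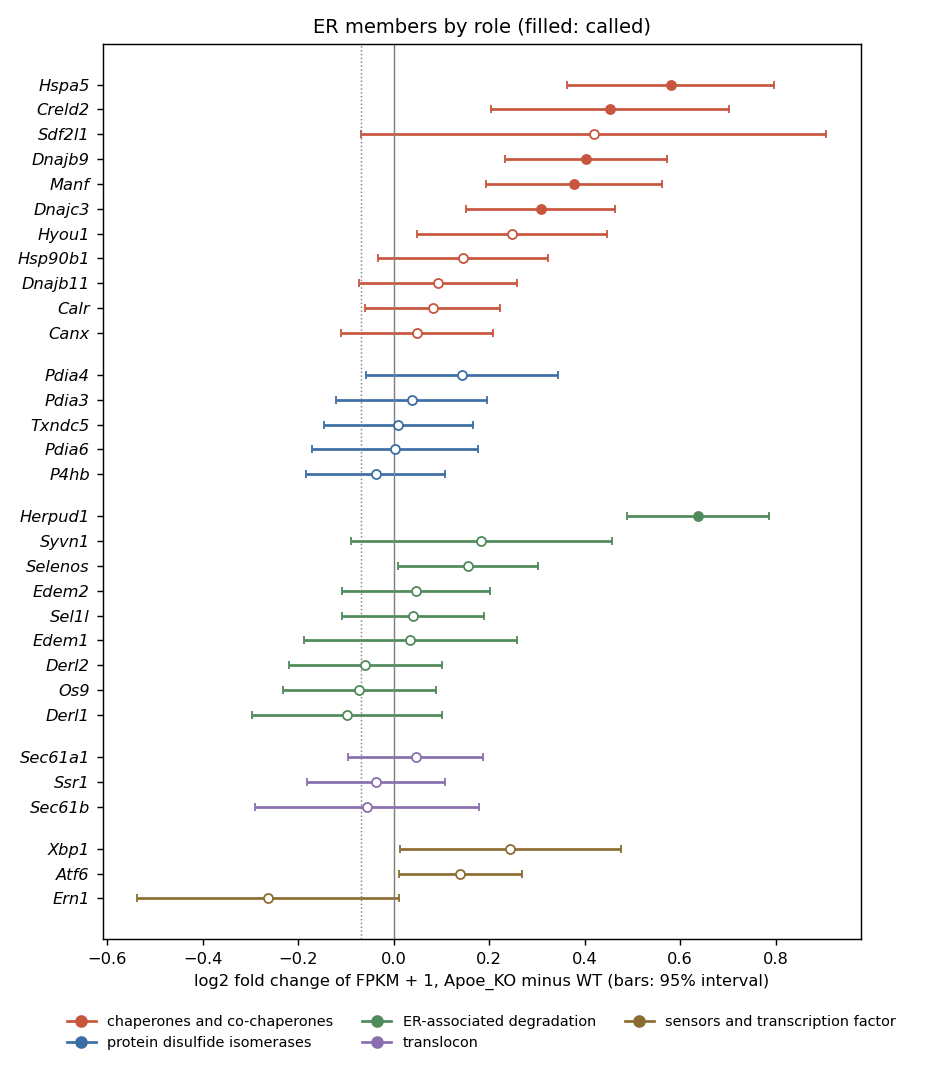
Log2 fold change of FPKM + 1 (Apoe_KO minus WT) with its 95% interval from limma for the 31 tested members, grouped by role, with filled points for members called higher. The solid line is 0 and the dotted line the median of all tested genes (-0.069). All 11 chaperones and co-chaperones lie to the right of 0, and the disulfide isomerases and translocon genes lie around it.

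In ER-associated degradation Herpud1 was the only one of 9 tested members called. The others ran from -0.097 (Derl1) to 0.18 (Syvn1), and the group median was 0.040. Syvn1 and Sel1l encode the ubiquitin ligase and its adaptor at the core of the pathway. Syvn1 averaged 8.43 ± 1.33 FPKM in the WT libraries and 9.71 ± 1.52 FPKM in the others, and Sel1l 19.0 ± 0.355 and 19.6 ± 1.78 FPKM (SD, n = 5 and 4). Selenos, a selenoprotein that links the complex to the cytosolic ATPase, averaged 29.7 ± 1.37 FPKM in the WT libraries and 33.3 ± 2.50 FPKM in the others (SD, n = 5 and 4), with a log2 fold change of 0.16 (95% interval 0.0094 to 0.30, limma adjusted p = 0.178). The mannosidase-like genes Edem1 and Edem2, which mark glycoproteins for disposal, had log2 fold changes of 0.034 and 0.047. The lectin gene Os9 and the channel genes Derl1 and Derl2 had values of -0.072, -0.097 and -0.059.

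Derl3, the third derlin gene, was not tested because it was below 1 FPKM in all libraries but WT 2. It was at 0.305, 2.66, 0.266, 0.079 and 0.108 FPKM in WT 1 to 5 and at 0.437, 0.378, 0.320 and 0.847 FPKM in Apoe_KO 1 to 4. The highest level of either group was in the library with the most lymphocyte transcripts, WT 2 and Apoe_KO 4. Mzb1, an ER protein of plasma and B cells, stood at 27.0 FPKM in WT 2, 7.83 FPKM in Apoe_KO 4 and 0.119 to 0.615 FPKM in the other libraries. Derl3 rested on 3 to 90 reads per library.

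The 3 translocon genes were not called (0 at an unadjusted p under 0.05, 0 by voom). Sec61a1 encodes the channel itself, Sec61b a small subunit, and Ssr1 a subunit of the associated signal sequence receptor complex. Sec61a1 was at 18.6, 19.8, 17.4, 19.9 and 19.3 FPKM in WT 1 to 5 and at 20.7, 17.99, 20.4 and 19.5 FPKM in Apoe_KO 1 to 4. The groups overlapped. Sec61a1 shares 8.16% of its exonic length with the antisense gene Gm44170. The log2 fold changes of Sec61a1, Sec61b and Ssr1 were 0.046, -0.056 and -0.037, and their 95% intervals together spanned -0.29 to 0.19.

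None of the 3 sensors and transcription factors was called (0 by voom), though 2 had an unadjusted p under 0.05. Xbp1 was at 48.2, 49.5, 35.9, 41.0 and 48.0 FPKM in WT 1 to 5 and at 49.3, 51.0, 51.6 and 58.7 FPKM in Apoe_KO 1 to 4. The groups overlapped only through Apoe_KO 1, which was just below WT 2. Its log2 fold change was 0.24 (95% interval 0.014 to 0.48, limma adjusted p = 0.180). These are levels of the whole gene and do not tell spliced from unspliced Xbp1 mRNA. Atf6 was at 9.02, 9.08, 9.85, 9.69 and 9.86 FPKM in WT 1 to 5 and at 10.1, 10.2, 10.997 and 10.97 FPKM in Apoe_KO 1 to 4. The groups did not overlap, but the difference was small (0.14, 95% interval 0.011 to 0.27, limma adjusted p = 0.171). Ern1 was at 5.03, 5.62, 5.03, 4.63 and 5.74 FPKM in WT 1 to 5 and at 4.98, 2.91, 4.59 and 4.44 FPKM in Apoe_KO 1 to 4. Its log2 fold change was -0.26 (95% interval -0.54 to 0.012, limma adjusted p = 0.223), with Apoe_KO 2 far below the others, and -0.13 without Apoe_KO 2 (adjusted p = 0.366; 0.167 to 0.467 over all alternatives).

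Among the uncalled members the intervals were narrow. For 24 of the 25 the 95% interval of the fold change lay within 1.5-fold in either direction, and Sdf2l1 was the exception. The log2 fold change was above 0 in 18 of them. Absolute values under 0.1 were found in 16 of the 31 tested members.

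The libraries of a group also differed among themselves. WT 2 was the highest WT library for 16 of the 31 tested members and Apoe_KO 4 the highest Apoe_KO library for 17, and these are the libraries with lymphocyte transcripts. Apoe_KO 2 was the lowest Apoe_KO library for 21 members and the highest for 0. It also had the largest share of FPKM in mitochondrially encoded genes, 28.7%, with WT 3 at 28.2% and the other libraries at 19.2% to 22.65%. With FPKM scaled to the total without those genes, 6 members were again called higher.

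**Figure D4:**
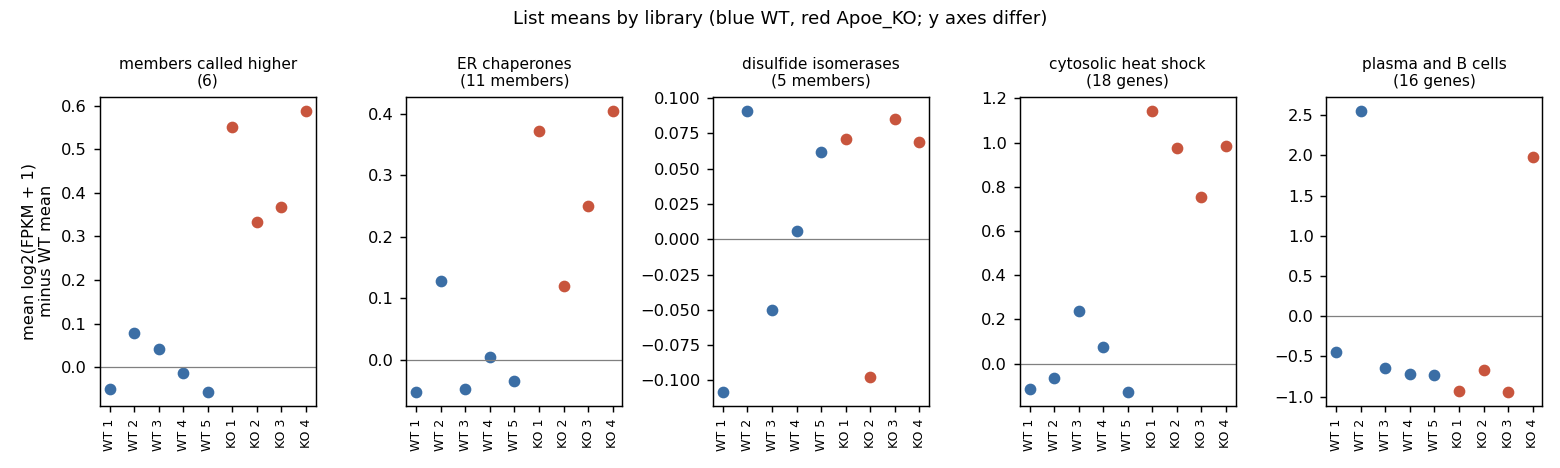
Mean log2(FPKM + 1) per library minus the WT mean (blue WT, red Apoe_KO, y axes differ). The first panels are the 6 called members, the 11 chaperones and co-chaperones and the 5 disulfide isomerases. The others are 18 heat shock response genes and 16 plasma and B cell markers. The heat shock panel is headed cytosolic, but its list also holds the mitochondrial Hspd1 and Hspe1 and the transcription factor Hsf1. Called members sit at 0.33 to 0.59 in Apoe_KO and -0.056 to 0.078 in WT, and heat shock genes at 0.76 to 1.14 and -0.13 to 0.24, whereas the plasma and B cell list is high in WT 2 and Apoe_KO 4 only.

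Heat shock response genes, among them cytosolic chaperones that are the counterpart of the ER chaperones, were also higher in Apoe_KO. They were listed because an earlier analysis of these data had found cytosolic heat shock genes higher. Their counts are therefore descriptive and not tested. The list also holds the mitochondrial chaperonin genes Hspd1 and Hspe1 and the transcription factor gene Hsf1. Of 18 tested, 13 were called higher (72.2%, against 3.43% of all tested genes) and 0 lower, with a median log2 fold change of 0.71. At an unadjusted p under 0.05, 16 were higher and 0 lower, and voom called 13 higher and 0 lower. Without WT 2 and Apoe_KO 4 together 11 were called higher, and with the replicate number as a block 8 were. Their summed level was 1262 to 1485 FPKM in WT and 2371 to 3014 FPKM in Apoe_KO. Hsp90ab1, the constitutive cytosolic Hsp90, rose from 400.4 ± 12.3 to 649 ± 63.9 FPKM (SD, n = 5 and 4, log2 fold change 0.69, limma adjusted p = 0.00176), beside 0.15 for the uncalled ER homolog Hsp90b1. Hspb1, Hsph1 and Hspa8 rose by 2.22, 1.88 and 1.08 on the log2 scale. The part of these genes' shift in the values of the ER members was not tested.

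Other cell type markers also differed between the groups. Of 11 macrophage markers 3 were called higher (Lyve1, Fcgr3 and Cd14), and the list summed to 392 to 650.3 FPKM in WT and 509 to 1024 FPKM in Apoe_KO. That count was 0 without Apoe_KO 3 or without WT 2 and Apoe_KO 4 together, and 1 without WT 1 or Apoe_KO 4. Of 8 white adipocyte markers 3 were called lower (Lep, Plin1 and Agpat2), with sums of 3018 to 4536 and 1996 to 3457 FPKM. The number called lower was 1 without WT 1, WT 2, WT 4, Apoe_KO 3, or WT 2 and Apoe_KO 4 together, and 5 without Apoe_KO 2. Of 9 smooth muscle markers 2 were called higher (Des and Synpo2), but 0 without WT 1, WT 4, WT 5, Apoe_KO 1, or WT 2 and Apoe_KO 4 together, 1 without WT 2 or Apoe_KO 3, and 4 without Apoe_KO 2. Of 7 endothelial markers 1 was called lower (Kdr), 0 without Apoe_KO 3, and 2 without WT 1 or Apoe_KO 4. Of 8 fibroblast markers 1 was called lower (Col3a1), 0 without WT 1, WT 4, WT 5, Apoe_KO 1, Apoe_KO 4, or WT 2 and Apoe_KO 4 together, and 2 without Apoe_KO 3. The fibroblast list was mixed, with 2 higher and 3 lower at an unadjusted p under 0.05, 3 of 8 above 0 and a median of -0.050. With the replicate number as a block, 3 macrophage markers were called higher and 1 white adipocyte marker lower. In that fit 0 smooth muscle, endothelial or fibroblast markers were called. Endothelial sums were 192 to 332 FPKM in WT and 179 to 311 FPKM in Apoe_KO, and fibroblast sums 1602 to 2197 and 1331 to 1871 FPKM. Of the 16 plasma and B cell markers 9 were tested and 1 was called higher (Irf4), and Iglc2 was listed at 0 in Apoe_KO 2. Irf4 was the only 1 of the 9 with a log2 fold change above 0, and their median was -0.30. At an unadjusted p under 0.05, 1 was higher and 1 lower. Sums of that list were 68.5 to 2615 FPKM in WT and 60.02 to 890.2 FPKM in Apoe_KO.

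Of the 10 T and NK cell markers 3 were tested and 0 called (0 at an unadjusted p under 0.05, 0 by voom), with sums of 5.08 to 64.5 FPKM in WT and 3.75 to 60.8 FPKM in Apoe_KO and with Klrb1c listed at 0 in Apoe_KO 3. No tested marker of brown adipocytes (6) or striated muscle (6) was called, with 0 at an unadjusted p under 0.05 and 0 by voom in either list. Brown adipocyte sums were 413 to 882 FPKM in WT and 352 to 888 FPKM in Apoe_KO, and striated muscle sums 9.29 to 62.6 and 4.87 to 22.4 FPKM. In whole tissue, fewer cells of a type and less RNA per cell cannot be told apart. The part of these cell types in the values of the ER genes was not tested.

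The third branch of the response, through the kinase encoded by Eif2ak3, and other signalling genes were described by a list of 23 genes, of which 21 were tested. Of these 2 were called higher and 0 lower (5 and 0 at an unadjusted p under 0.05, 2 and 0 by voom), and the median was 0.041. Map3k5, a stress kinase activated downstream of ERN1, rose from 7.71 ± 0.384 to 12.4 ± 1.52 FPKM (SD, n = 5 and 4, log2 fold change 0.62, limma adjusted p = 0.00282). Chac1, which degrades glutathione and is induced through ATF4, rose from 2.27 ± 0.644 to 4.36 ± 0.881 FPKM (0.72, limma adjusted p = 0.0291). The Map3k5 call was lost only with the replicate number as a block (limma adjusted p = 0.0505). The Chac1 call was lost without WT 1 (adjusted p = 0.0534), WT 3 (0.0558), WT 4 (0.0646), Apoe_KO 2 (0.0547), Apoe_KO 3 (0.0943) or Apoe_KO 4 (0.0545). It was also lost with no filter on low genes (0.0788) and with the replicate number as a block (0.0672), among alternatives from 0.0160 to 0.0943. The log2 fold change of Chac1 was 0.63 to 0.83 with 1 library left out. The log2 fold changes of Eif2ak3, Atf4 and Ddit3 were 0.23, 0.22 and 0.24, none of them called.

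Further genes of ER-associated degradation (33 listed, 31 tested) had 2 called higher and 1 lower, 6 and 3 at an unadjusted p under 0.05, 1 and 1 by voom, and a median of 0.048. Ube2g2, a ubiquitin-conjugating enzyme of the pathway, rose from 15.9 ± 0.801 to 22.8 ± 1.92 FPKM (SD, n = 5 and 4, log2 fold change 0.49, limma adjusted p = 0.00348). It shares 10.3% of its exonic length with Gm49325 and Mir1930. The Ube2g2 call was lost only with the replicate number as a block (limma adjusted p = 0.0531). Ube2d3, another conjugating enzyme, at 0.24 (adjusted p = 0.0495), and Erlin2, an ER membrane protein, at -0.21 (adjusted p = 0.0464), were at the threshold. With 1 library left out Ube2d3 was called only without Apoe_KO 2 (adjusted p = 0.0316, up to 0.111 without the others), and Erlin2 was called in none of these fits (adjusted p = 0.0636 to 0.104). The number called higher was 2 without WT 2, 1 without WT 1, WT 3, WT 4, WT 5, Apoe_KO 1, Apoe_KO 3 or Apoe_KO 4 and 5 without Apoe_KO 2. Without WT 2 and Apoe_KO 4 together 1 was called higher and 0 lower. With the replicate number as a block 0 were called in either direction.

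The remaining folding, translocation and glycosylation genes showed no such calls. Of 34 tested genes of ER folding outside the members, 0 were called by limma (0 higher and 2 lower at an unadjusted p under 0.05, 0 by voom), with a median of -0.044. Those of smallest p were Fkbp2 (-0.27, adjusted p = 0.153), a prolyl isomerase that was called lower without Apoe_KO 2 (adjusted p = 0.0239, up to 0.382 over all alternatives), and the thioredoxin-related Tmx2 (-0.37). Tmx2 shares 11.6% of its exonic length with Gm28635 and the antisense gene Med19. Of 21 translocation and signal peptidase genes 0 were called (2 higher and 2 lower at an unadjusted p under 0.05, 0 by voom, median 0.020), with Srprb, of the signal recognition particle receptor, at 0.26 (adjusted p = 0.0582) and Ssr2 at -0.23 (adjusted p = 0.0658). Each was called in 4 alternatives, Ssr2 among them without Apoe_KO 2 (adjusted p = 0.0479, up to 0.237 over all alternatives). Srprb shares 20.7% of its exonic length with Gm20425, and Ssr2 12.8% with the antisense gene Gm10704, so their values are uncertain to that extent. Of 12 oligosaccharyltransferase genes, which attach N-glycans to new proteins, 0 were called (1 higher and 1 lower at an unadjusted p under 0.05, 0 by voom, median 0.032), with Stt3b at 0.19 and Ostc at -0.17.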

How the data were processed

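Aortic RNA of 5 WT and 4 Apoe_KO samples was sequenced. The protocol in the labels depletes ribosomal RNA, although the molecule field says polyA RNA. GRCm38 and limma are named in the submitters' processing notes. No source used here gives the aligner, the counting, the annotation or the strand setting. The authors deposited FPKM values, already scaled by gene length and library total, in 1 table that names no unit. The unit was inferred: multiplied by exonic lengths of GENCODE mouse release 21 and by 1 depth per library, 97.6% to 97.9% of values worth up to 50 reads came within 0.1 of a whole read. That annotation held 33240 of the 33293 identifiers and gave symbols, positions and overlaps. There were 0 columns of other samples.

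The test was limma 3.58.1 (run in R 4.3.3, moderated with a mean trend and robust to outlying variances) on log2(FPKM + 1), with genotype as its single term, for the 13383 genes that reached 1 FPKM in 4 or more libraries. Benjamini-Hochberg adjustment covered all of these genes, and SEs and 95% intervals are from the same fit. The fit was also run on simulated reads with a fixed dispersion and no cell type differences between libraries. That run therefore does not vouch for the SEs here. Motifs were searched in RefSeq promoters (GRCm38.p6). There were 15 lists of other genes, 6 of pathways and 9 of cell type markers, and their symbols Hm13 and Sel1l2 matched no row and are not analysed here. Members and lists were chosen with earlier results of these data known. Library values are given for called members, for the most abundant member of each role and for further members chosen after their values were seen. From each pathway list up to 4 called genes, or with none the 2 of smallest p, were named; marker genes called, and Eif2ak3, Atf4, Ddit3 and Mzb1, were named after their values were seen. Alternatives were the replicate number as a block, left-out libraries, other pseudocounts, filters and scalings, library weights, and voom on recovered reads. Plots used Python 3.11.15 and matplotlib 3.10.9.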

Additional observations from a re-analysis of the deposited data

Results flagged for a closer look

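Dixon's criterion was applied to 92 sample groups, of which it marked 2, and chance marks about 1 in 20. Sel1l was low in Apoe_KO 2, at 16.9 FPKM against 20.2 to 20.9 FPKM in the other Apoe_KO libraries. Srprb was high in Apoe_KO 4, at 7.49 FPKM against 7.19 to 7.23 FPKM in the other Apoe_KO libraries, which lay within a narrow range.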

How the results depend on the processing

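Of 584 pairs of a tested member and an alternative, 551 kept their side of the threshold, 30 lost a call and 3 gained one, and no call changed sign. The count of members called higher (6) was 1 with the replicate block, 3 with no filter, 2 without WT 2 and Apoe_KO 4, and 3 to 7 with 1 library left out; with pseudocount 0.1, the filter of 10 FPKM, median centring, quantile normalization, scaling without mitochondrial genes, library weights and voom it was 6 or 7. Members called lower were 0 under every alternative. Over all tested genes, the number higher (459) was 121 with the replicate block, 247 with no filter, 702 with library weights, 203 without WT 2 and Apoe_KO 4, and 205 to 576 with 1 library left out. The number lower (524) was 62 with the replicate block, 198 with no filter, 220 with the filter of 10 FPKM, 269 with median centring, 240 with quantile normalization, 1055 with library weights, 174 without WT 2 and Apoe_KO 4, and 178 to 683 with 1 library left out. Fewer libraries or residual degrees of freedom, or more genes tested, are part of the block, the left-out libraries and the unfiltered fit; otherwise the cause was not tested. The replicate block leaves WT 5 without a partner. Correlations of deviations from the group means, over tested genes, were -0.27 to 0.26 in the 4 same-numbered pairs. They were -0.42 to 0.61 in the 16 other pairs. So few pairs cannot decide whether same-numbered libraries share a batch, and the sample titles give only a number. Few reads limit the precision for Derl3 (3 to 90 reads per library), Sdf2l1 (86 to 229) and Chac1 (49 to 160).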

Other observations

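ERSE or ERSE-II was also in the promoter window of 35 genes outside the members. Of these 14 were matched by symbol and tested, with a median of 0.0034. Among them 1 was called higher (Lgalsl, a galectin-like gene, log2 fold change 0.35, limma adjusted p = 0.0348) and 1 lower (Gm46430, -0.36, limma adjusted p = 0.0240). Both were named after their values were seen. Ero1b, which the annotation used for the fit names Ero1lb, was not matched and is missing from the tested count and the median. Under that name it is in the list of other ER folding genes, where 0 were called.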
